A study of Salmo salar with 26 samples.

Results

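Adenosine deaminase is an enzyme of purine handling, and DEPTOR, homer and Rhes are signalling proteins. Across salmon lenses, 5 transcript contigs (unigenes) with hits to these or to attractin-like protein 1 were followed. The 5 unigenes are Unigene4383 (adenosine deaminase), Unigene4123 (DEPTOR-like), CL3023.Contig2 (homer 2-like), Unigene6759 (Rhes-like) and Unigene3900 (attractin-like), out of 26681 unigenes measured. They were selected on RPKM measured in these lenses, as transcripts lower with cataract, so their cataract differences describe the choice and carry no test here. All 5 passed the filter on low values, which left 19532 unigenes.

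RNA was sequenced from 26 lenses of Atlantic salmon (Salmo salar), each library from its own fish. The groups were diploid fish with cataract (2N+, n = 6), diploid fish without cataract (2N-, n = 6), triploid fish with cataract (3N+, n = 8) and triploid fish without cataract (3N-, n = 6). The labels record no treatment beyond the sorting by ploidy, and cataract was a state of the fish, not an induced one. Whole lenses were homogenised, so fewer cells of a type and less RNA per cell cannot be told apart. Values are RPKM, read counts scaled by contig length and by library size, from libraries of 9.76 to 11.95 M reads.

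Adenosine deaminase converts adenosine, a purine that also signals through receptors at the cell surface, to inosine. DEPTOR is a subunit of both complexes of the kinase mTOR, which couples nutrients to growth, and it inhibits that kinase. Homer proteins are scaffolds that tie glutamate receptors of the metabotropic class to calcium release channels of the endoplasmic reticulum. Rhes is a small GTP-binding protein of the Ras superfamily, known in mammals mainly from the striatum of the brain. Attractin and its relatives are large glycoproteins, known in mice from coat pigmentation. The lens itself is a sheet of epithelial cells over fibre cells packed with crystallins, and crystallin hits took 38.0 to 47.3% of the reads in these libraries.

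The names are best protein hits, and their strength varied. The adenosine deaminase contig was 1671 bases long and its hit was a salmon protein with a listed E value of 0. The Rhes-like contig of 1572 bases had an E value of 7.43e-139 against a tilapia protein, and the DEPTOR-like contig of 1898 bases one of 5.85e-56 against a pufferfish protein. The homer 2-like contig was shorter, at 765 bases with an E value of 9.62e-19. The attractin-like contig, at 865 bases, had the weakest hit, with an E value of 3.66e-07. A contig may be a fragment of a gene or take in reads of a near-identical copy, and the sources used here do not say whether counting used strand. By mean RPKM over the 26 lenses, a value per length, the DEPTOR-like unigene stood highest at 62.9 RPKM, above 96.8% of tested unigenes. Adenosine deaminase averaged 38.2 RPKM, above 95.1% of them, homer 2-like 20.6 RPKM and Rhes-like 9.14 RPKM. Attractin-like was low, at 3.52 RPKM, above 29.1% of tested unigenes and with 7 to 70 reads in a lens.

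Adenosine deaminase, the enzyme of the set, was measured at 8.04, 13.5 and 58.9 RPKM in 2N+ lenses (lowest, median and highest), against 54.1, 56.4 and 70.9 RPKM in 2N- lenses. In 2N+, 5 of 6 lenses lay below every 2N- lens, and the exception, 2N+ replicate 4, lay inside the 2N- range. In triploids the unigene had 15.4, 20.8 and 35.5 RPKM in 3N+ lenses, against 44.7, 52.7 and 57.2 RPKM in 3N- lenses. All 8 of the 3N+ lenses were below all 6 of the 3N- lenses. The log2 difference of the scaled values was -2.06 ± 0.39 (SE) in 2N+ against 2N- and -1.19 ± 0.36 in 3N+ against 3N-. Each SE here and below takes its spread from all 4 groups together, not from the groups compared. The 2N- lenses were tight, at 60.5 ± 8.14 RPKM (SD, n = 6), while 2N+ lenses spread over 21.9 ± 19.2 RPKM (n = 6).

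The DEPTOR-like unigene, named for the mTOR inhibitor, showed the same layout at a higher level. It had 12.9, 30.5 and 80.7 RPKM in 2N+ lenses, against 76.9, 88.8 and 110.9 RPKM in 2N- lenses. Again 2N+ replicate 4 alone reached the 2N- range, and the other 5 lenses were below it. In triploids the values were 26.7, 44.4 and 58.4 RPKM in 3N+ lenses, against 69.7, 83.2 and 113.4 RPKM in 3N- lenses, with no overlap. The log2 difference was -1.87 ± 0.36 (SE) in 2N+ against 2N- and -1.05 ± 0.34 in 3N+ against 3N-.

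The homer 2-like unigene, the scaffold, had 3.04, 13.3 and 23.0 RPKM in 2N+ lenses, against 28.0, 39.1 and 52.2 RPKM in 2N- lenses. No 2N+ lens reached the 2N- range. In triploids it had 5.81, 11.6 and 17.3 RPKM in 3N+ lenses, against 14.4, 17.6 and 29.0 RPKM in 3N- lenses, and 7 of 8 of the 3N+ lenses were below all 3N- lenses. The lens above was 3N+ replicate 7. That count is on RPKM as deposited. On the scaled log2 values, 3N+ replicates 6, 7 and 8 (3.80, 4.35 and 3.77) lay above 3N- replicate 1 (3.74). The log2 difference of homer 2-like was -2.09 ± 0.41 (SE) in 2N+ against 2N- and -0.87 ± 0.38 in 3N+ against 3N-.

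The Rhes-like unigene, the small G protein, was the most scattered of the 5 on the log2 scale in 2N-, 3N+ and 3N- lenses, though not in 2N+. It had 1.70, 4.69 and 10.7 RPKM in 2N+ lenses, against 6.13, 18.3 and 20.7 RPKM in 2N- lenses. On RPKM as deposited, 5 of 6 of the 2N+ lenses were below all 2N- lenses. On the scaled log2 values, 2N+ replicate 1 (2.77) also lay above 2N- replicate 1 (2.73). The 2N- lenses themselves split, with replicates 1 and 3 at 6.13 and 8.74 RPKM and the other 4 between 16.8 and 20.7 RPKM. In triploids it had 2.97, 4.34 and 12.3 RPKM in 3N+ lenses, against 4.13, 9.83 and 26.8 RPKM in 3N- lenses. Only 3 of 8 of the 3N+ lenses lay below all 3N- lenses on RPKM as deposited, so the triploid groups overlapped widely. The log2 difference was -1.87 ± 0.47 (SE) in 2N+ against 2N- and -0.95 ± 0.44 in 3N+ against 3N-.

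The attractin-like unigene had 0.697, 2.06 and 4.06 RPKM in 2N+ lenses, against 4.99, 5.5 and 7.82 RPKM in 2N- lenses, with no overlap. It had 1.36, 2.23 and 3.91 RPKM in 3N+ lenses, against 2.80, 4.23 and 4.83 RPKM in 3N- lenses. One triploid lens with cataract, 3N+ replicate 3, was above the lowest 3N- lens on RPKM as deposited and the other 7 were below. On the scaled log2 values that lens (1.89) was below 3N- replicate 3 (1.92) too. The log2 difference of attractin-like was -1.56 ± 0.27 (SE) in 2N+ against 2N- and -0.74 ± 0.25 in 3N+ against 3N-.

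**Figure D1:**
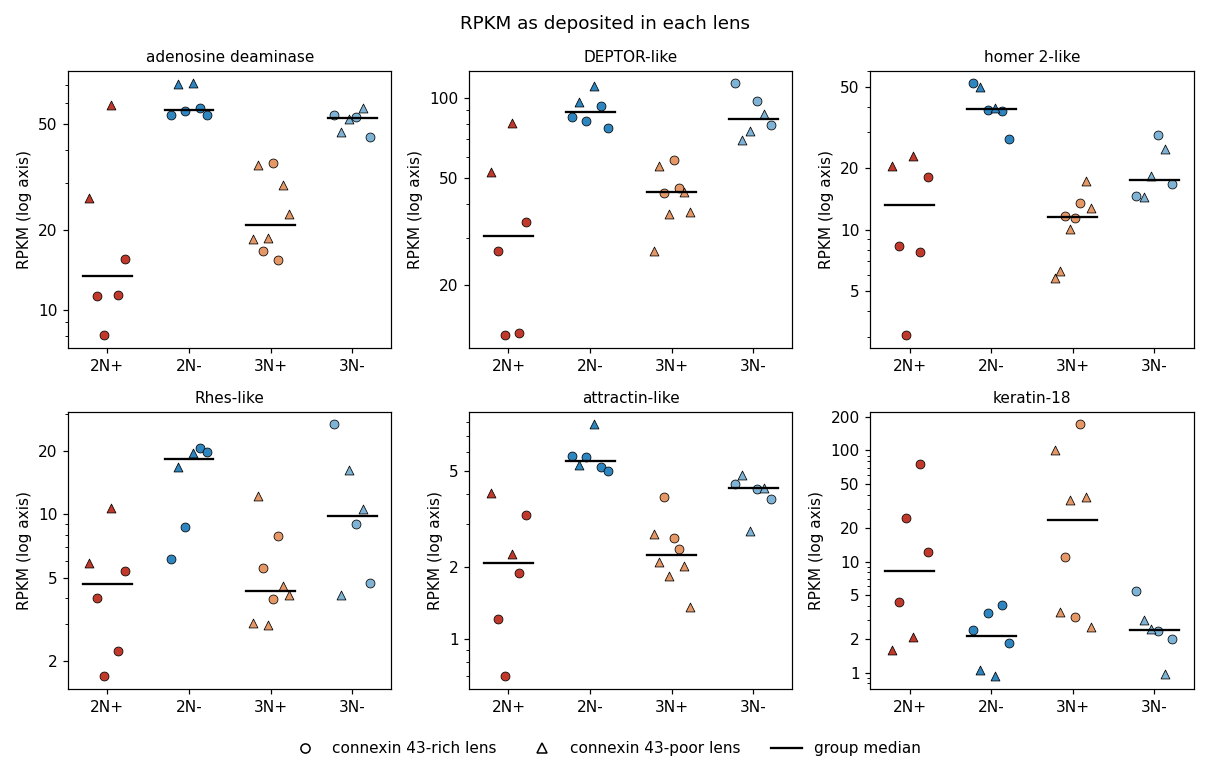
RPKM as deposited (log axis) of the 5 unigenes and of keratin-18 in each lens, by group. Each point is 1 lens, the bar is the group median, and the shape tells lenses rich in connexin 43 from lenses poor in it; adenosine deaminase sits between 15.4 and 35.5 RPKM in 3N+ lenses and between 44.7 and 57.2 RPKM in 3N- lenses.

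With limma's empirical Bayes test, Benjamini-Hochberg adjusted over all 19532 unigenes, all 5 were among the unigenes lower in 2N+ than in 2N-, which made up 1.10% of those tested. None of the 5 passed in 3N+ against 3N-, where 0.0410% of tested unigenes were lower. The test uses a spread shared by all groups, to which the scattered 2N+ lenses add most. For DEPTOR-like the log2 SD was 1.25 in 2N+ lenses, against 0.34 in 3N+ and 0.22 in 3N- lenses. All 5 passed in the average of both cataract contrasts, where 1.87% were lower. Groups did not overlap on RPKM as deposited for 2 of the 5 in 2N+ against 2N- (homer 2-like and attractin-like), where 0.435% of tested unigenes lay wholly lower. They did not overlap for another 2 in 3N+ against 3N- (adenosine deaminase and DEPTOR-like), where that share was 0.266%. These counts restate the choice of the unigenes, and nothing is read from them. The triploid difference was the smaller in size for each of the 5, by 0.81 to 1.22 on the log2 scale. The diploid contrast took part in the choice, so this gap is given as description and carries no test. It does not show that the cataract difference depends on ploidy.

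Body weight moved with cataract in diploids. The 2N+ fish weighed 460 to 840 g and the 2N- fish 110 to 345 g, so weight and cataract cannot be told apart between those groups. The triploid ranges overlapped, at 270 to 885 g in 3N+ and 280 to 700 g in 3N- fish. Scaling factors differed between the diploid groups as well. They averaged 1.16 in 2N+ and 0.944 in 2N- lenses, and without them the median log2 difference of all tested unigenes in 2N+ against 2N- was 0.28, where with them it was 0.02. On RPKM as deposited, the log2 differences of the 5 in 2N+ against 2N- were between -1.82 and -1.33.

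Ploidy was compared in lenses of each cataract state, but these comparisons reuse the 2N- and 2N+ lenses on which the unigenes were selected. A choice of high 2N- and low 2N+ values favours differences below 0 in 3N- against 2N- and above 0 in 3N+ against 2N+, so both are given as description. The homer 2-like unigene had 14.4, 17.6 and 29.0 RPKM in 3N- lenses, against 28.0, 39.1 and 52.2 RPKM in 2N- lenses. On RPKM as deposited, 5 of the 6 triploid lenses lay below all diploid ones. On the scaled log2 values, 3N- replicates 4 and 5 (4.91 and 4.96) lay above 2N- replicate 6 (4.82). The log2 difference of homer 2-like was -1.09 ± 0.41 (SE). The attractin-like unigene was at 2.80 to 4.83 RPKM in 3N- lenses and 4.99 to 7.82 RPKM in 2N- lenses. On RPKM as deposited it thus did not overlap, and 0.276% of tested unigenes lay wholly lower in this way. On the scaled log2 values it did overlap, with 3N- replicates 2 and 5 (2.58 and 2.51) above 2N- replicate 5 (2.38). The log2 difference of attractin-like was -0.50 ± 0.27. The other 3 had log2 differences of -0.26 ± 0.39 (adenosine deaminase), -0.10 ± 0.36 (DEPTOR-like) and -0.52 ± 0.47 (Rhes-like).

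In lenses with cataract, the DEPTOR-like unigene had 26.7, 44.4 and 58.4 RPKM in 3N+ lenses, against 12.9, 30.5 and 80.7 RPKM in 2N+ lenses, so the 3N+ lenses lay inside the 2N+ range. Its log2 difference was 0.73 ± 0.34 (SE), and it ran from 0.44 without 2N+ replicate 3 to 1.08 without 2N+ replicate 4. Adenosine deaminase had 0.61 ± 0.36, with 0.35 and 1.02 without the same lenses. Rhes-like, attractin-like and homer 2-like had 0.39 ± 0.44, 0.32 ± 0.25 and 0.13 ± 0.38, and homer 2-like was at -0.07 on RPKM as deposited. With limma, 0 of the 5 passed in 3N- against 2N-, where 0.0717% of tested unigenes did. In 3N+ against 2N+, 0 of the 5 passed, where 0.0102% of tested unigenes did. Homer 2-like in 3N- against 2N- and DEPTOR-like in 3N+ against 2N+ had an unadjusted p under 0.05. Both differences lay in the direction that the choice of the unigenes favours. These contrasts share the lenses of that choice, so they cannot test ploidy here. Nothing is read from these calls and p.

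The average of both ploidy contrasts takes the 2N- and 2N+ lenses together, so that high values in one and low values in the other offset each other in part. The offset need not be full, since 2N+ lenses spread more, with a log2 SD for adenosine deaminase of 1.25 against 0.40 in 2N- lenses. The average was tested, but it is not free of the choice of the unigenes. This average was -0.48 ± 0.28 (SE) for homer 2-like, 0.32 ± 0.25 for DEPTOR-like and 0.18 ± 0.27 for adenosine deaminase, with limma adjusted p of 0.515, 0.645 and 0.824. Attractin-like had -0.09 ± 0.18 and Rhes-like -0.07 ± 0.32, with limma adjusted p of 0.873 and 0.951. With limma, 0 of the 5 passed and 0 had an unadjusted p under 0.05, where 0.261% of all tested unigenes passed.

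**Figure D2:**
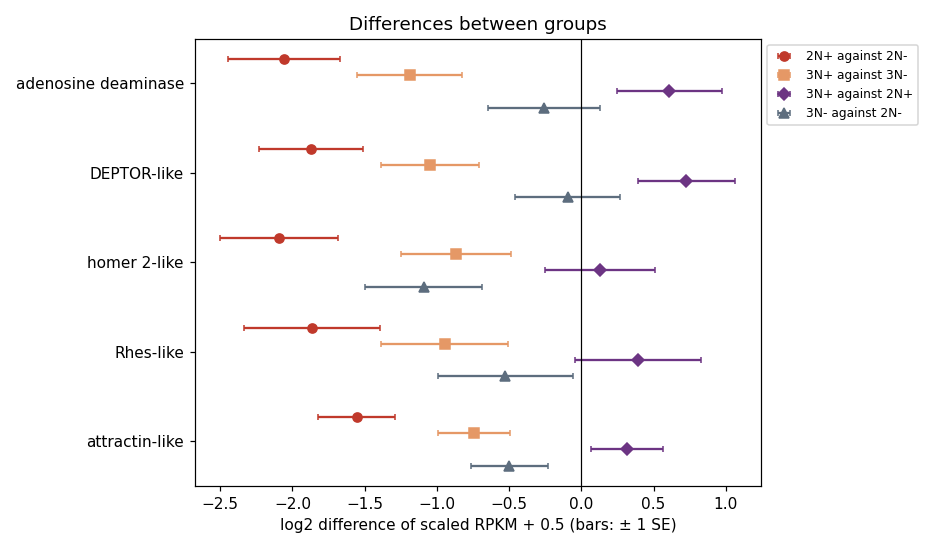
Log2 differences of the scaled RPKM plus 0.5 for the 5 unigenes in 4 comparisons, with bars of 1 SE. The cataract differences run from -2.09 to -0.74 and describe how the unigenes were chosen, while the ploidy differences, which share those lenses, run from -1.09 to 0.73.

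Within groups, the steepest of the 5 slopes on body weight was that of homer 2-like, and it did not pass. It was 0.73 ± 0.24 (SE) log2 units for each doubling of body weight, with limma adjusted p = 0.576 and an unadjusted p under 0.05. The other slopes were 0.44 ± 0.24 for DEPTOR-like, 0.32 ± 0.26 for adenosine deaminase, 0.14 ± 0.19 for attractin-like and 0.02 ± 0.33 for Rhes-like. With limma, 0 of the 19532 tested unigenes had a slope past the adjusted threshold, and 1239 had an unadjusted p under 0.05.

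The 2N+ lenses kept nearly the same order from unigene to unigene. The lens of 2N+ replicate 3 was the lowest of its group for all 5, and that of replicate 4 the highest for 4 of them. Replicate 1 was second for those 4 and the highest for attractin-like, at 4.06 RPKM. The order was looser in 3N+ lenses. There, on RPKM as deposited, replicate 5 was highest for adenosine deaminase (35.5 RPKM) and DEPTOR-like (58.4 RPKM), replicate 2 for Rhes-like (12.3 RPKM), replicate 7 for homer 2-like (17.3 RPKM) and replicate 3 for attractin-like (3.91 RPKM). On the scaled log2 values, replicate 2 was highest for adenosine deaminase (5.26), DEPTOR-like (5.91) and Rhes-like (3.78). Replicate 1 was lowest there for DEPTOR-like (4.84), homer 2-like (2.73) and Rhes-like (1.90). Among 2N- lenses, replicate 6, from the lightest fish of the study at 110 g, was lowest for DEPTOR-like (76.9 RPKM) and homer 2-like (28.0 RPKM) both on RPKM as deposited and on the scaled values.

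With the 4 group means removed, the 5 unigenes varied together to different degrees over the 26 lenses. Each r pools all groups, and none was taken within a single group. On the log2 scale 2N+ lenses had the largest SD for each of the 5, so they weigh heavily in r. For DEPTOR-like that SD was 1.25 in 2N+ lenses, against 0.36 in 2N-, 0.34 in 3N+ and 0.22 in 3N- lenses. The 25 relations computed (10 among the unigenes, 5 with keratin-18 and 10 with connexin 43) were tested by two-sided permutation within groups and adjusted together. Adenosine deaminase and DEPTOR-like were the closest pair, with Pearson r = 0.90 (permutation p = 2e-05, adjusted p = 0.00025) and Spearman rho = 0.84 (permutation p = 1e-05, the smallest that these permutations can give, adjusted p = 0.00025). Of all tested unigenes, 0.0102% had a higher r with adenosine deaminase. Without the 2 lenses farthest from the median, 2N+ replicates 3 and 2, r was 0.87, and it was 0.85 on RPKM as deposited.

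In the pooled lenses, DEPTOR-like also went with homer 2-like and Rhes-like, which does not show that it did so in every group. Its r was 0.79 with homer 2-like (permutation adjusted p = 0.00375, rho = 0.68) and 0.72 with Rhes-like (permutation adjusted p = 0.00025, rho = 0.70). Without the 2 farthest lenses these were 0.66 and 0.63. Adenosine deaminase had r = 0.62 with Rhes-like (permutation adjusted p = 0.00619, rho = 0.55) and r = 0.72 with homer 2-like (permutation adjusted p = 0.0175, rho = 0.56). The last of these did not hold on ranks (permutation adjusted p = 0.0528), on RPKM as deposited (r = 0.59, permutation adjusted p = 0.152), or without 2N+ replicate 5 (permutation adjusted p = 0.0506). The attractin-like unigene had r of 0.56, 0.65, 0.66 and 0.36 with adenosine deaminase, DEPTOR-like, homer 2-like and Rhes-like, and none of the 4 passed. The one with homer 2-like (permutation adjusted p = 0.0554) passed with median-of-ratios scaling (0.0460), with a pseudocount of 0.1 (0.0468) and when any 1 of 6 libraries was left out (3N- replicates 2 and 3 and 3N+ replicates 1, 3, 7 and 8, permutation adjusted p of 0.0245 to 0.0490). Its r with adenosine deaminase was 0.27 without the 2 farthest lenses, so it rested on them.

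The share of tested unigenes with a higher r than the pair's was counted from each side. For homer 2-like and DEPTOR-like, 0.123% had a higher r with DEPTOR-like and 0.0461% with homer 2-like. For Rhes-like and DEPTOR-like the shares were 0.466% from DEPTOR-like and 0.0410% from Rhes-like. The shares depended more on the side for adenosine deaminase. With homer 2-like they were 1.62% from adenosine deaminase and 0.553% from homer 2-like, or 0.492% and 0.225% on RPKM as deposited, and with Rhes-like 4.51% from adenosine deaminase and 0.241% from Rhes-like, or 0.727% and 0.236%. Homer 2-like and Rhes-like had r = 0.43 (permutation adjusted p = 0.163), with shares of 11.1% from homer 2-like and 3.89% from Rhes-like, or 3.14% and 2.70% on RPKM as deposited. All values of a lens share its library, depth and scaling factor.

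By cataract state, adenosine deaminase and DEPTOR-like had r = 0.90 in the 14 lenses with cataract and 0.88 in the 12 lenses without it, or 0.86 and 0.69 on RPKM as deposited. The Rhes-like pairs differed more between the states, with r = 0.65 in lenses with cataract and 0.04 in lenses without it against homer 2-like, and 0.55 and 0.02 against attractin-like. These differences in r were not tested, and the lenses with cataract include the 2N+ lenses, which spread most. In lenses with cataract alone, 4 of the 10 pairs passed, and in lenses without cataract alone 0 of 10 passed; there adenosine deaminase and DEPTOR-like had permutation adjusted p = 0.0682.

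**Figure D3:**
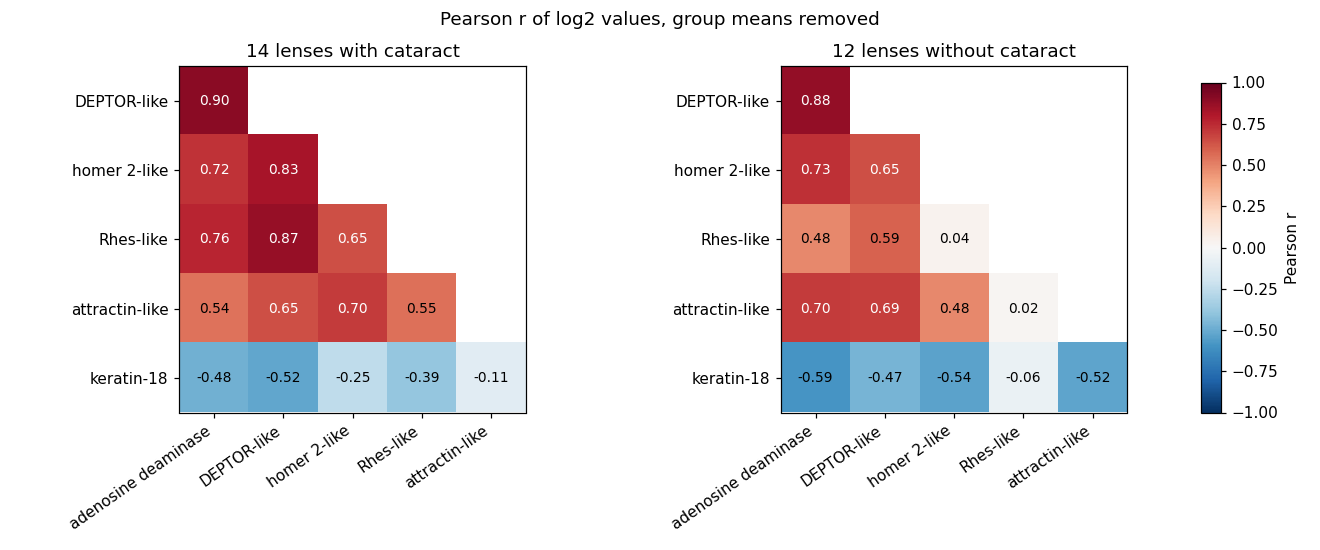
Pearson r of the log2 values with group means removed, in the 14 lenses with cataract (left) and the 12 lenses without it (right). Adenosine deaminase with DEPTOR-like is at 0.90 and 0.88, while homer 2-like with Rhes-like is at 0.65 and 0.04.

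Keratin-18 (Unigene7304), a filament protein of simple epithelia, lay the other way from the 5 unigenes. It had 1.61, 8.30 and 76.1 RPKM in 2N+ lenses, against 0.927, 2.15 and 4.03 RPKM in 2N- lenses. In triploids it had 2.60, 23.5 and 171.7 RPKM in 3N+ lenses, against 0.966, 2.43 and 5.45 RPKM in 3N- lenses. Most lenses with cataract, 4 of 6 in diploids and 5 of 8 in triploids, lay above all lenses of the group without it. Its average log2 difference with cataract was 2.11 ± 0.62 (SE), with limma adjusted p = 0.0711, so it did not pass.

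Pooled over the 26 lenses with group means removed, r with keratin-18 was negative for each of the 5 unigenes. That does not show a negative relation in every group, since no r was taken within a single group. It was -0.52 for DEPTOR-like (permutation p = 0.0161, adjusted p = 0.0576) and -0.49 for adenosine deaminase (permutation p = 0.0381, adjusted p = 0.113), with rho of -0.42 and -0.46. Neither passed, and these were the 2 of 5 with an unadjusted permutation p under 0.05. On RPKM as deposited they were -0.60 and -0.62, each with permutation adjusted p = 0.0376. The DEPTOR-like relation also passed when any 1 of 3N+ replicates 3, 6, 7 or 8 was left out, with permutation adjusted p of 0.0309 to 0.0480. The rest were -0.28 for homer 2-like, -0.28 for Rhes-like and -0.15 for attractin-like, with rho of -0.22, -0.31 and -0.18 and permutation adjusted p of 0.453, 0.319 and 0.819. Without 3N+ replicates 6 and 1, the lenses farthest from the median of keratin-18, r was -0.57 for DEPTOR-like and -0.46 for adenosine deaminase.

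Single lenses did not all follow this. In 3N+ replicate 6 keratin-18 was highest of all, at 171.7 RPKM, and adenosine deaminase was lowest of its group at 15.4 RPKM, but DEPTOR-like ranked 3 of 8 at 46.2 RPKM. In 3N+ replicate 8 keratin-18 was lowest of its group, at 2.60 RPKM, and attractin-like was lowest too, at 1.36 RPKM. The 2 diploid cataract lenses with the least keratin-18, replicates 1 and 4 at 1.61 and 2.11 RPKM, were the 2 highest for adenosine deaminase, DEPTOR-like, homer 2-like and Rhes-like. These 2 were also the 2N+ lenses with the least connexin 43, at 0.560 and 5.09 RPKM. In 2N-, replicates 2 and 4 were lowest for keratin-18 (1.06 and 0.927 RPKM) and connexin 43 (1.90 and 1.39 RPKM). They were highest for adenosine deaminase, at 70.8 and 70.9 RPKM. In diploids the 2 measures thus cannot be told apart at these lenses. In 3N+ lenses keratin-18 overlapped between those rich (3.15 to 171.7 RPKM) and poor (2.60 to 100.5 RPKM) in connexin 43.

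**Figure D4:**
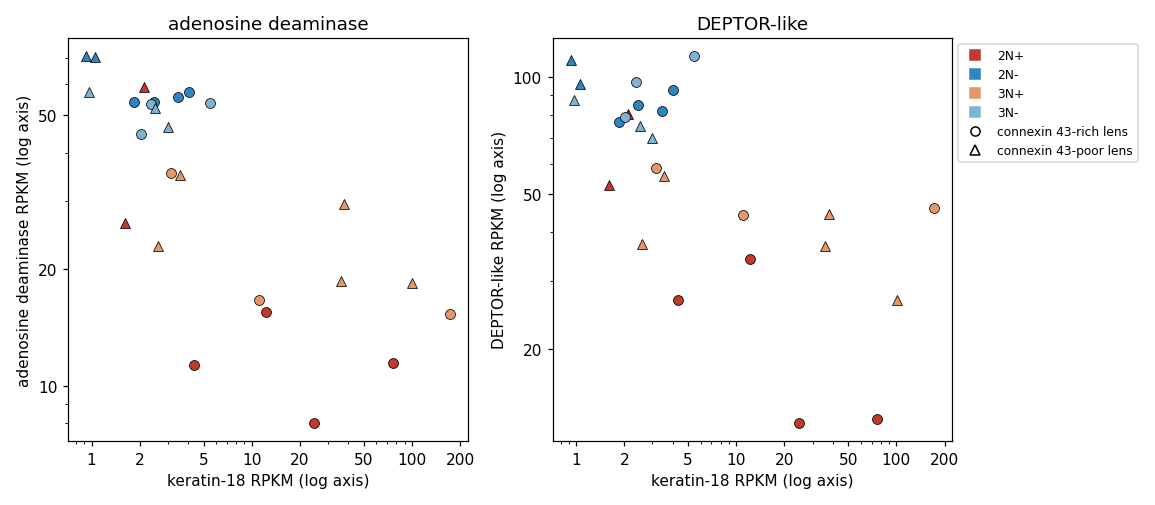
Adenosine deaminase (left) and DEPTOR-like (right) against keratin-18, all in RPKM as deposited on log axes, 1 point for each lens. Colours give the group and shapes tell lenses rich in connexin 43 from lenses poor in it. Over all lenses with group means removed, r was -0.49 and -0.52 on the scaled values.

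Connexin 43 (CL2590.Contig1), the gap junction protein of lens epithelium, split the lenses and not the groups. At the widest gap in its log2 values, 14 lenses lay at 23.7 to 109.5 RPKM and 12 at 0.420 to 7.89 RPKM, and both kinds occurred in every group. They are lenses divided by a measured value, not groups of the study, so no r with connexin 43 was taken across the split. The r values among the unigenes and with keratin-18 were taken over all lenses with group means removed. They therefore run across the split, and its part in them was not tested. Connexin 43 itself had an average log2 difference with cataract of -0.10 ± 0.90 (SE), with limma adjusted p = 0.983. Scaling factors moved with it, at 0.984 to 1.41 in the 14 rich lenses and 0.709 to 0.980 in the 12 poor ones.

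In 2N+ the 4 lenses rich in connexin 43 had less of 4 of the unigenes than the 2 poor lenses, while attractin-like overlapped. How many of all tested unigenes split in this way was not counted. The 2N+ lenses kept nearly the same order for these unigenes, so nothing is read from the count of 4. Adenosine deaminase was at 8.04 to 15.5 RPKM in the rich lenses and at 26.3 and 58.9 RPKM in the poor ones. DEPTOR-like was at 12.9 to 34.2 RPKM in the rich lenses and at 53.0 and 80.7 RPKM in the poor ones. In 3N+ lenses the kinds overlapped, with adenosine deaminase at 15.4 to 35.5 RPKM in the 3 rich and 18.5 to 35.1 RPKM in the 5 poor lenses. They overlapped in 3N- lenses too, at 44.7 to 53.8 and 46.6 to 57.2 RPKM. In 2N- lenses adenosine deaminase was at 54.1 to 57.2 RPKM in the 4 rich lenses and at 70.8 and 70.9 RPKM in the 2 poor ones.

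Within each kind, connexin 43 gave no relation that passed. Over the 14 rich lenses r ran from -0.22 (Rhes-like) to 0.15 (DEPTOR-like), with permutation adjusted p of 0.724 and 0.901. Over the 12 poor lenses it ran from -0.06 (Rhes-like) to 0.38 (adenosine deaminase), with permutation adjusted p of 0.901 and 0.819. None of the 10 had an unadjusted permutation p under 0.05. Some rested on few lenses, since without 3N+ replicate 1 and 3N- replicate 3 the r of adenosine deaminase over the poor lenses was 0.77.

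The summed levels of markers of other cells varied between lenses, and their part in the values above was not tested. Keratin hits (10, keratin-18 among them) summed to 106.9 to 419 RPKM in 2N+ and 108 to 155 RPKM in 2N- lenses, and to 115 to 889 RPKM in 3N+ and 104 to 154 RPKM in 3N- lenses. Lens epithelium hits (11, keratin-18 and connexin 43 among them) summed to 32.1 to 320 RPKM in 2N+ and 33.6 to 149 RPKM in 2N- lenses, and to 37.4 to 676 RPKM in 3N+ and 31.9 to 136 RPKM in 3N- lenses. Lens fibre hits (22) summed to 6704 to 8503 RPKM in 2N+ and 8200 to 9680 RPKM in 2N- lenses, and to 7282 to 9552 RPKM in 3N+ and 8345 to 10180 RPKM in 3N- lenses. Of 19 tested fibre hits, 2 fell in the average of both cataract contrasts with limma, where 1.87% of all tested unigenes fell. At an unadjusted p under 0.05, 9 of the 19 were lower with cataract and 0 higher, where 14.5% of all tested unigenes had such a p in either direction. Retina, erythrocyte and leukocyte hits (28, 15 and 20) reached 3547, 1411 and 115 RPKM in 2N+, 248, 156 and 90.6 RPKM in 2N-, 559, 744 and 98.0 RPKM in 3N+, and 2174, 2061 and 101.9 RPKM in 3N- lenses at their highest. With limma, 0 tested members of the keratin, epithelium, retina, erythrocyte and leukocyte lists passed in that average, while 5 of 9, 5 of 11, 1 of 15, 3 of 13 and 2 of 14 had an unadjusted p under 0.05, as did 14.5% of all tested unigenes. These were higher with cataract, other than 1 of the epithelium and both of the leukocyte hits. No listed marker was at 0 in every lens.

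The other unigenes carrying the same names had smaller average differences with cataract, from -0.24 to 0.33 on the log2 scale. A second adenosine deaminase contig (Unigene14745, 580 bases), with a hit to a smelt protein, averaged 3.39 RPKM and had an average log2 difference with cataract of 0.12 (limma adjusted p = 0.805). A contig for the adenosine deaminase-like protein (Unigene12906) had 0.12 (limma adjusted p = 0.773), and 2 contigs of the RNA-editing deaminase (Unigene824 and Unigene823) had 0.00 and 0.19 (limma adjusted p = 0.999 and 0.538). The homer 1-like contigs CL2882.Contig1 and Unigene11899 had 0.33 and 0.14 (limma adjusted p = 0.296 and 0.875), and CL2882.Contig1 had 0.80 in 2N+ against 2N- (limma adjusted p = 0.0617). The other attractin-like contig (Unigene14180) had -0.24 (limma adjusted p = 0.563). A further 4 (Unigene16067, Unigene15983, Unigene6319 and Unigene18008, hits to deaminases of tRNA or double-stranded RNA and to homer 3) were too low to test, and no other DEPTOR or Rhes hit was found.

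Of the surrounding pathways, 4 of 120 listed unigenes, the 5 left out, passed in the average of both cataract contrasts, a share close to the 2.68% of all tested unigenes. Of 24 tested unigenes of adenosine and purine handling, 1 fell and none rose. It was a cytosolic purine 5′-nucleotidase (CL3736.Contig1), which removes phosphate from purine monophosphates, at 8.06 ± 3.24 RPKM in 2N+ and 13.8 ± 2.14 RPKM in 2N- lenses (SD, n = 6 each), and at 10.1 ± 2.45 RPKM in 3N+ (n = 8) and 15.4 ± 1.91 RPKM in 3N- lenses (n = 6). Its average log2 difference was -0.88 ± 0.17 (SE), with limma adjusted p = 0.00364, and the list's median was 0.09 against 0.01 over all tested unigenes.

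Of 31 tested unigenes of the mTOR pathway, 1 rose and 1 fell, and the median log2 difference was 0.01. FK506-binding protein 1A (Unigene7730), the protein through which rapamycin binds mTOR, had 66.6 ± 9.27 RPKM in 2N+ and 41.7 ± 7.83 RPKM in 2N- lenses (SD, n = 6 each), and 53.4 ± 8.66 RPKM in 3N+ (n = 8) and 45.7 ± 7.88 RPKM in 3N- lenses (n = 6). Its log2 difference in 3N+ against 3N- was 0.18 (limma adjusted p = 0.467). Its average log2 difference was 0.28 ± 0.06 (SE, limma adjusted p = 0.00412), and a second contig of that name (Unigene7729) had 0.06 (limma adjusted p = 0.853). A hamartin-like unigene (CL217.Contig1), named for a subunit of the complex that restrains mTOR complex 1, fell by 0.45 on the log2 scale (limma adjusted p = 0.0314). That call was lost on RPKM as deposited (-0.29, limma adjusted p = 0.187), with the replicate block (limma adjusted p = 0.0506) and when any 1 of 7 libraries was left out (2N- replicates 2, 4 and 5, 2N+ replicate 5, and 3N- replicates 1, 2 and 3; limma adjusted p up to 0.0645).

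Of 50 tested unigenes of Rhes partners and G protein signalling, 1 fell and none rose, with a median log2 difference of 0.05. It was Unigene2889, with a hit to guanine nucleotide-binding protein subunit beta-like protein 1. That hit was listed by the words of its name, and a part in G protein signalling is not shown here. Unigene2889 had 4.85 ± 1.16 RPKM in 2N+ and 8.55 ± 1.27 RPKM in 2N- lenses (SD, n = 6 each). In triploids it had 5.85 ± 0.980 RPKM in 3N+ (n = 8) and 8.69 ± 1.57 RPKM in 3N- lenses (n = 6). Its average log2 difference was -0.80 ± 0.15 (SE, limma adjusted p = 0.00194). With limma, 0 of 5 homer partners and calcium release channels passed and 0 of 10 attractin partners, with 2 of each at an unadjusted p under 0.05. The most abundant of these, a ryanodine receptor 3-like calcium release channel (Unigene4009), the homer 1-like Unigene11899 and the kelch domain proteins CL1918.Contig1 and Unigene10685, had average log2 differences of 0.20, 0.14, 0.01 and 0.13. In the ploidy contrasts none of the 120 passed with limma, against 0.261% of all tested unigenes in their average. In that average 7 of 24 purine handling and 10 of 31 mTOR unigenes had an unadjusted p under 0.05 and a higher level in triploids. Of all tested unigenes, 11.9% had such a p in either direction. In the lists of Rhes, homer and attractin partners, 0 were higher in this way, and 2, 0 and 1 were lower. The mTOR count was 11 in 3N- against 2N- and 1 in 3N+ against 2N+, and for purine handling it was 3 in each. Several listed unigenes share a protein name, so these are not counts of separate genes.

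Unigenes with the most similar course across lenses were looked up for each of the 5 among those with a protein hit and a mean of at least 2 RPKM, by Pearson r of the values with group means removed over the 26 lenses. For adenosine deaminase they were DEPTOR-like (0.90), gamma-crystallin B (Unigene6143, 0.89), a structural protein of fibre cells, and Unigene9691 (0.88). For DEPTOR-like they were adenosine deaminase, CL392.Contig2 (0.88) and Unigene8821 (0.87), the last 2 without an informative name. For homer 2-like they were myotubularin-related protein 9-like (Unigene4400, 0.84), Unigene2722 (0.84) and Unigene3155 (0.83). For Rhes-like they were RING finger protein 37-like (Unigene10516, 0.83), Unigene9693 (0.75) and tubulin polymerization-promoting protein-like (Unigene851, 0.72). For attractin-like they were glutathione synthetase-like (Unigene2984, 0.77), Unigene8821 (0.76) and RtcB, a tRNA ligase (Unigene320, 0.76). Unigene8821 thus stood near both DEPTOR-like and attractin-like.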

How the data were processed

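The authors deposited 1 table of RPKM values for unigenes assembled without a genome, with protein hits (26 lenses, poly(A) RNA, single-end reads per the labels). Which assembler and aligner were used is not given in the sources used here. A dash was read as 0. Whole reads were recovered from the deposited RPKM for 100% of unigenes within 0.01 reads, which gave the library totals; the number of reads limits precision for low unigenes. Scaling factors were trimmed means of M values (trims 0.3 and 0.05). Unigenes with over 10 reads at the median library size in at least 6 libraries and at least 15 reads in all were tested with limma 3.58.1 (R 4.3.3; trend, robust) on log2(scaled RPKM + 0.5), 4 group means, p adjusted by Benjamini-Hochberg, threshold 0.05; log2 differences are on that scale and understate changes of low unigenes. Levels and overlaps use RPKM as deposited unless stated, and some overlaps differ on the scaled values. A second fit added log2 body weight centred within groups. Correlations used 100000 permutations within groups in Python 3.11.15 (numpy 2.4.6). The limma fit, in 3N- against 2N-, and the permutation test of correlations were tried on simulated data. The body weight slope and the averaged contrasts were not. The deposited values were RPKM alone, and no count test was run on the recovered reads.

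The 5 unigenes, the lists and the tests were chosen with earlier results of these data known. Lists match words of the protein hits, so a few unrelated proteins are among them. Genes named are the 5, keratin-18 and connexin 43; other contigs of the same names; listed unigenes past the threshold in any contrast (at most 8 a list), otherwise the 2 most abundant; and the 3 most similar unigenes for each of the 5. Unigene7729 is named beside its namesake and was chosen after its values were seen. Replicate numbers were checked for pairing. Alternatives were other scalings, pseudocounts and filters, a replicate block, body weight, the groups of a contrast alone, ranks, and leaving out each library.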

Additional observations from a re-analysis of the deposited data

Results flagged for a closer look

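There were 28 sets of values, the 5 unigenes, keratin-18 and connexin 43 in each of 4 groups. On RPKM as deposited, 3 held a lens that stood far from the others of its group by Dixon's criterion at 95%. Chance gives about 1 in 20 such sets if values are normally distributed, which RPKM as deposited need not be. The flags depend on that scale. On the scaled log2 values the lenses flagged below were at 6.02 (adenosine deaminase), 3.27 (attractin-like) and 6.08 (keratin-18). The next lenses were at 4.86, 3.00 and 4.17, and the lowest of the groups at 2.64, 2.38 and 1.16. Adenosine deaminase was at 58.9 RPKM in 2N+ replicate 4, and the gap to the next lens was 0.64 of the group's range. The same lens was the highest of its group for DEPTOR-like, homer 2-like and Rhes-like. The attractin-like unigene was at 7.82 RPKM in 2N- replicate 4, with a gap of 0.72 of the range. Keratin-18 was at 76.1 RPKM in 2N+ replicate 5, with a gap of 0.69 of the range, and adenosine deaminase was at 11.4 RPKM in that lens, inside the range of its group.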

How the results depend on the processing

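Of the 20 group differences of the 5 unigenes, 18 kept their direction under every alternative run, and the other 2 passed no test. The choice of the unigenes set the direction of the cataract differences and favours that of the ploidy differences. Nothing is read from the count of 18. Body weight centred within groups, no filter and the groups alone cannot move a group difference, so they are no check on it. Weight and cataract stay inseparable in diploids. Homer 2-like in 3N+ against 2N+ turned to -0.067 on RPKM as deposited and to -0.059 with the replicate block, and leaving out single libraries gave -0.256 (without 2N+ replicate 3) to 0.398. DEPTOR-like in 3N- against 2N- gave -0.162 to 0.004 (without 2N- replicate 2). The Rhes-like weight slope turned to -0.035 on RPKM as deposited. In 2N+ against 2N-, leaving out single libraries gave -2.47 to -1.79 for adenosine deaminase and -1.78 to -1.32 for attractin-like.

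Counts over all unigenes moved more, and the cause was not tested. They were 268 in 2N+ against 2N-, 17 in 3N+ against 3N-, 524 in their average, 14 in 3N- against 2N-, 2 in 3N+ against 2N+ and 51 in the ploidy average. On RPKM as deposited they were 1315, 48, 1432, 60, 10 and 61, and 12 listed unigenes passed in place of 4. With the replicate block they were 222, 4, 369, 5, 1 and 20. That block is no pairing, since 18 of 36 same-numbered pairs had a correlation of deviations over 0.1 and 3 of 26 libraries lay nearest to one with the same number; it changed no call of the 5 in the ploidy contrasts. The fit to the groups of the contrast alone gave 70 in 2N+ against 2N- and 1 in 3N+ against 2N+. Body weight gave 32 in 3N- against 2N-. A pseudocount of 0.1 gave 0 in 3N+ against 2N+, as did no filter, with which the ploidy average was 32; it was 31 with median-of-ratios scaling.

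Leaving out single libraries gave 103 (without 2N+ replicate 3) to 485 (without 2N+ replicate 4) in 2N+ against 2N-, 5 (without 3N- replicate 3) to 43 (without 3N+ replicate 5) in 3N+ against 3N-, 3 (without 3N- replicate 3) to 72 (without 3N- replicate 1) in 3N- against 2N-, 0 to 15 (without 2N+ replicate 4) in 3N+ against 2N+, and 12 to 117 in the ploidy average (without 3N- replicates 3 and 1).

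Among the 5 unigenes 4 to 6 of 10 pairs passed under every alternative but the lenses without cataract alone, with 0, an alternative chosen after seeing the data that leaves 12 lenses. Pairs passing with keratin-18 numbered 2 on RPKM as deposited, 1 with a pseudocount of 0.1, and 0 to 1 when libraries were left out. Connexin 43 relations, none of which passed, changed sign easily. Over the rich lenses r with adenosine deaminase was 0.115 on RPKM as deposited, and over the poor lenses rho with Rhes-like was 0.021. Leaving out single libraries, r over the rich lenses ran from -0.378 to 0.162 for adenosine deaminase, -0.262 to 0.55 for DEPTOR-like, -0.492 to 0.158 for homer 2-like and -0.595 to 0.147 for attractin-like. Over the poor lenses it ran from -0.062 to 0.695 for adenosine deaminase, -0.196 to 0.686 for DEPTOR-like, -0.018 to 0.539 for homer 2-like, -0.295 to 0.151 for Rhes-like and -0.064 to 0.711 for attractin-like. Read depth limits the attractin-like unigene most, at 7 to 70 reads in a lens.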
